A study of Drosophila melanogaster with 6 samples.

Results

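The nuclear glycine tRNAs of the *Drosophila* larval brain were examined as a family. They were defined as every nuclear entry of the deposited tRNA table whose name begins with Gly, which gave 4 of the 84 nuclear isodecoders (tRNAs that share an anticodon but differ elsewhere in sequence). The samples were 3 neuroblast-biased and 3 neuron-biased whole brains of L3 larvae, quantified by hydro-tRNAseq, in which tRNAs are partly hydrolysed into short fragments before sequencing. Neuroblast-biased brains had the genotype *insc-Gal4>UAS-aPKC_caax*, in which the *insc* driver expresses membrane-targeted atypical protein kinase C in neuroblasts and so fills the brain with ectopic neural progenitors. Neuron-biased brains were wild type, of the strain given as Oregon R in the labels and as Oregon-R-P2 in the study's methods. Both are whole brains, so glia and the minority cell type contributed to each mean, and fewer cells of a type cannot be told apart from less tRNA per cell. The table holds tRNAs only, so no marker of either cell type could be checked in it. The labels name a culture temperature of 25 °C, which is the upper end of the range in the study's methods. The hours of larval age differ between places in the study's text, with a later age in its methods than in its results.

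Each value below is the authors' mean of 3 replicates per group in TMM, a read count normalised between libraries by the trimmed mean of M values. The table gives 1 mean per group. The spread between replicates and the reads per library are therefore unknown here, no difference was tested, and a ratio past 0.5 on the log2 scale is named by its size alone. Most nuclear tRNAs had a lower mean TMM in neuroblasts. The median log2 ratio of neuroblast over neuron was −0.27 over the 84 nuclear isodecoders, and ratios relative to that median are given where they alter the reading.

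Glycine is decoded from 4 synonymous codons that begin with GG. The anticodon GCC pairs with GGC and, by wobble at its first base, reads GGU. The anticodon UCC pairs with GGA and also reads GGG. The RefSeq annotation of the Release 6 assembly listed 20 nuclear glycine tRNA genes, 14 with the anticodon GCC and 6 with UCC, and 0 with CCC or ACC. The deposited table writes UCC as TCC, and the ending X in a name marks an isodecoder with several genes of the same mature sequence.

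The GCC anticodon comprised Gly-GCC-1-X, with 13 genes, and Gly-GCC-2-1, with 1 gene. The genes of Gly-GCC-1-X lay on chromosome arms 2L, with 7 copies, and 2R, with 6 copies. A group of 5 Gly-GCC genes, picked by hand, spanned 12834 bp of 2L (2L:14518091-14530924), and the gene of Gly-GCC-2-1 closed this group at 2L:14530854-14530924. The gene of Gly-GCC-2-1 was separated by 237 bp from the neighbouring gene tRNA:Gly-GCC-1-7, which encodes Gly-GCC-1-X and began at 2L:14530546. The genes tRNA:Gly-GCC-1-4 to tRNA:Gly-GCC-1-6 lay apart from this pair and ended at 2L:14518691. The gaps of 145 and 243 bp were those from tRNA:Gly-GCC-1-5 to tRNA:Gly-GCC-1-4 and to tRNA:Gly-GCC-1-6. None of these 5 genes overlapped the span of another annotated gene. The UCC anticodon comprised Gly-UCC-1-X, with 4 genes on 3R, and Gly-UCC-2-X, with 2 genes on 2R. The genes of Gly-UCC-1-X formed 2 pairs. The pair at 3R:18108637-18108708 and 3R:18108993-18109064 lay 284 bp apart within the span of *sr*, which encodes an early growth response family transcription factor. Over all 20 genes, 5 lay within the span of another gene and 15 did not, and for 13 the nearest tRNA gene was also a glycine gene. Each GCC gene was 71 bp long and each UCC gene 72 bp, so levels within the family are compared at nearly equal length.

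Gly-GCC-1-X, the more abundant reader of GGC, showed the widest separation between the groups in the family. Its mean was 678845 TMM in neuroblasts and 1383673 TMM in neurons, with a log2 ratio of −1.03. The neuroblast mean was thus 49.1% of the neuron mean. Relative to the nuclear median, the ratio was −0.76, still past 0.5. Its difference (neuroblast minus neuron) of −704828 TMM was the most negative of all 84 nuclear isodecoders, and its log2 ratio was the 8th lowest. Per base of gene length, Gly-GCC-1-X ranked 5th of 84 in neuroblasts, at 9561 TMM per bp, and 1st in neurons, at 19488 TMM per bp.

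Gly-GCC-2-1, which carries the same anticodon in a different tRNA body, did not share this difference. Its mean was 135624 TMM in neuroblasts and 127744 TMM in neurons, with a log2 ratio of 0.09. Relative to the nuclear median the ratio was 0.35. It was the only glycine isodecoder with a higher mean in neuroblasts. Mapped reads with several references were split between them, so the values of isodecoders with shared fragments depend in part on that division.

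Gly-UCC-1-X, the more abundant reader of GGA, averaged 263230 TMM in neuroblasts and 387353 TMM in neurons. Its log2 ratio was −0.56, just past 0.5, and −0.29 relative to the nuclear median, which is short of it. Gly-UCC-2-X averaged 97455 TMM in neuroblasts and 117303 TMM in neurons, a log2 ratio of −0.27. This was the 42nd lowest ratio of the 84 nuclear isodecoders, so Gly-UCC-2-X sat at their middle and helped to set the nuclear median. Relative to that median its ratio was −0.0003, near 0 by construction. With both groups scaled to equal summed nuclear TMM the ratio changed sign, to 0.031.

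**Figure D1:**
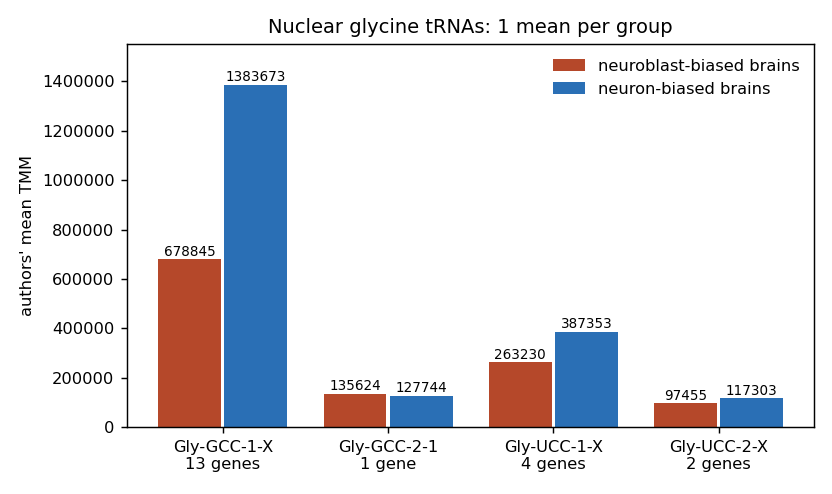
The authors' mean TMM (linear axis from 0) of the 4 nuclear glycine isodecoders, with neuroblast-biased brains in red and neuron-biased brains in blue, and the number of genes under each name. Each bar is 1 group mean of 3 replicates without an error. Gly-GCC-1-X stands at 678845 in neuroblasts and 1383673 in neurons, while Gly-GCC-2-1 stands at 135624 in neuroblasts and 127744 in neurons.

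In total, 3 of the 4 glycine isodecoders had a lower mean in neuroblasts, as did 57 of the 84 nuclear isodecoders. Of the 4, 2 were lower by at least 0.5 on the log2 scale, Gly-GCC-1-X and Gly-UCC-1-X, against 33.3% of all nuclear isodecoders, and 0 were higher by that much, against 8.33%. Relative to the nuclear median, only Gly-GCC-1-X of the 4 was lower by 0.5 or more, against 14.3% of all. Gly-GCC-1-X was also the only glycine isodecoder lower by at least 1, against 9.52% of all. The median log2 ratio was −0.41 for the 4 glycine isodecoders and −0.27 for the 84. With 4 members, these counts do not set glycine apart from other tRNAs.

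The order of levels within the family, by mean TMM at nearly equal gene length, was Gly-GCC-1-X, Gly-UCC-1-X, Gly-GCC-2-1 and Gly-UCC-2-X in both groups. The level of Gly-GCC-1-X relative to Gly-GCC-2-1 was 5.01 in neuroblasts and 10.8 in neurons, which is a difference of −1.11 on the log2 scale. That of Gly-UCC-1-X relative to Gly-UCC-2-X was 2.70 in neuroblasts and 3.30 in neurons, a difference of −0.29. These ratios within a group do not depend on the scaling of the groups. Among the 26 anticodons with more than 1 isodecoder, Gly-GCC had the 4th widest spread of log2 ratios and Gly-UCC the 19th, with a median spread of 0.55. Initiator Met was counted apart here. The spread is the highest minus the lowest ratio, so it can grow with the number of isodecoders, which differs between anticodons. Isodecoders on both sides of 0, as in Gly-GCC, were found in 10 of the 26 anticodons.

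**Figure D2:**
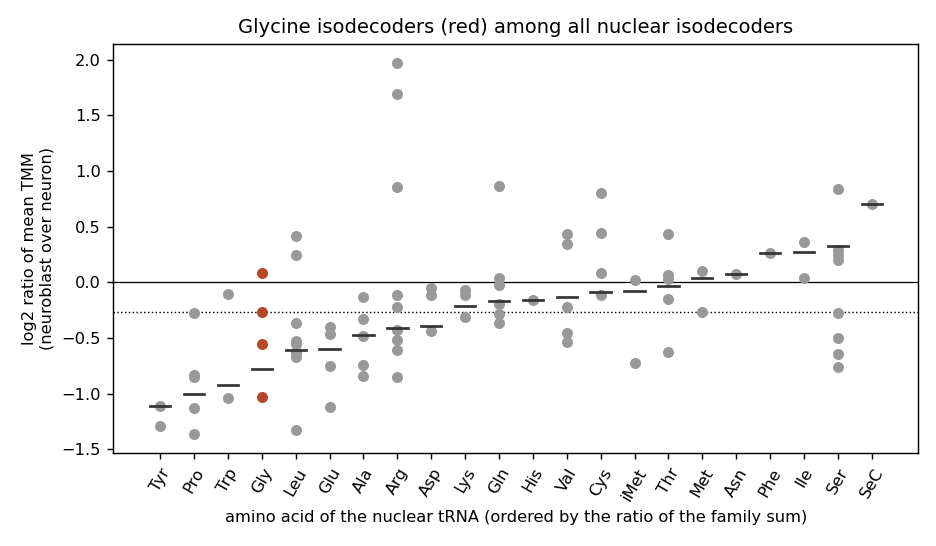
Log2 ratio of mean TMM (neuroblast over neuron) of each of the 84 nuclear isodecoders, one point each, by amino acid, with glycine in red. Short bars give the ratio of the family sum, the solid line is 0 and the dotted line the nuclear median of −0.27. The 4 glycine points run between −1.03 and 0.09.

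The glycine pool was smaller in neuroblasts than in neurons, and GCC made up less of it. Summed over the 4 isodecoders, glycine tRNAs had 1175155 TMM in neuroblasts and 2016073 TMM in neurons, a log2 ratio of −0.78 and of −0.51 relative to the nuclear median. Of the difference in this sum, 83.8% was that of Gly-GCC-1-X, 14.8% that of Gly-UCC-1-X and 2.36% that of Gly-UCC-2-X, while Gly-GCC-2-1 was higher in neuroblasts. The sum of the other 3 isodecoders, without Gly-GCC-1-X, was 496309 TMM in neuroblasts and 632400 TMM in neurons. Their log2 ratio was −0.35, or −0.08 relative to the nuclear median.

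The anticodon GCC held 69.3% of the glycine pool in neuroblasts and 75.0% in neurons, and UCC held 30.7% in neuroblasts and 25.0% in neurons. The summed TMM of Gly-GCC was 814470 in neuroblasts and 1511417 in neurons, with a log2 ratio of −0.89. For Gly-UCC it was 360685 in neuroblasts and 504656 in neurons, with a log2 ratio of −0.48. Hence the Gly-GCC signal was 2.26 times that of Gly-UCC in neuroblasts and 2.99 times in neurons. By isodecoder, Gly-GCC-1-X made up 57.8% of the pool in neuroblasts and 68.6% in neurons, and Gly-UCC-1-X made up 22.4% in neuroblasts and 19.2% in neurons. Gly-GCC-2-1 made up 11.5% of the pool in neuroblasts and 6.34% in neurons, and Gly-UCC-2-X 8.29% in neuroblasts and 5.82% in neurons. The shares of the 3 lesser isodecoders were therefore each higher in neuroblasts, although the mean TMM of 2 of them was lower. Without Gly-GCC-1-X, GCC is Gly-GCC-2-1 alone and held 27.3% of the glycine pool in neuroblasts and 20.2% in neurons. This reversed order is no separate result. It follows from the ratios above, as Gly-GCC-2-1 was higher in neuroblasts and both UCC isodecoders were lower.

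Of all nuclear TMM, glycine tRNAs took 8.74% in neuroblasts and 12.2% in neurons, a difference of −3.45 percentage points. This was the most negative difference in share among the 22 amino acid families, in which initiator Met and selenocysteine are counted apart. By isodecoder, Gly-GCC-1-X took 5.05% of nuclear TMM in neuroblasts and 8.36% in neurons. Gly-UCC-1-X took 1.96% in neuroblasts and 2.34% in neurons. The remaining members had slightly higher shares in neuroblasts. Gly-GCC-2-1 took 1.01% in neuroblasts and 0.772% in neurons, and Gly-UCC-2-X took 0.725% in neuroblasts and 0.709% in neurons. The nuclear sum includes Gly-GCC-1-X, which made up 22.8% of the difference in that sum between the groups. The small differences in share of the other members therefore depend in part on Gly-GCC-1-X. Without Gly-GCC-1-X in either sum, glycine took 3.89% in neuroblasts and 4.17% in neurons.

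**Figure D3:**
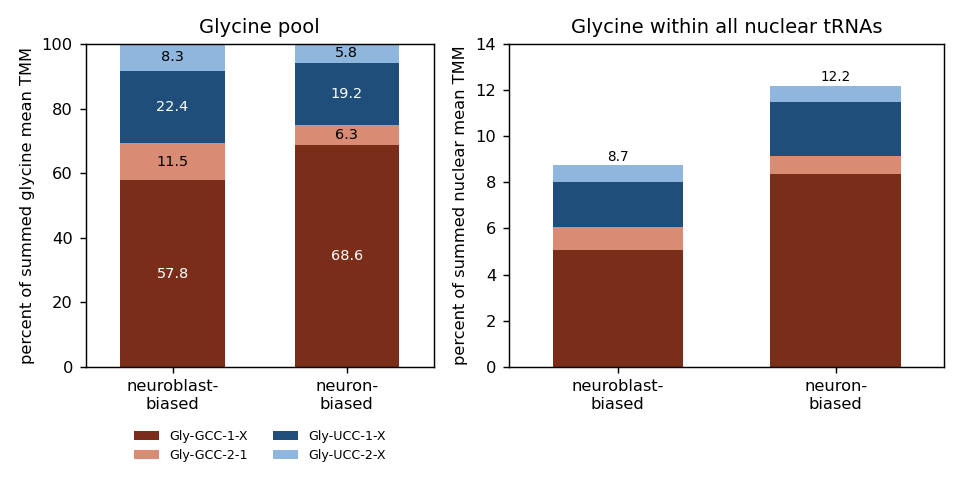
Left, percent of the summed glycine mean TMM held by each glycine isodecoder, and right, percent of the summed nuclear mean TMM held by the same isodecoders, with neuroblast-biased brains left of neuron-biased brains in each panel. GCC isodecoders are in red shades and UCC isodecoders in blue shades. The glycine column of the right panel reaches 8.74% in neuroblasts and 12.2% in neurons, and the difference is mostly in the Gly-GCC-1-X segment.

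Among the families, summed per base of gene length, glycine ranked 3rd in neuroblasts and 1st in neurons. In neuroblasts it stood between Lys, with 1249411 TMM in sum, and Asp, with 1149226 TMM. In neurons it was followed by Arg, with 1848029 TMM. The log2 ratio of the glycine sum was the 4th lowest of the 22 families, after Tyr, Pro and Trp. The anticodon Gly-GCC, per base of gene length, ranked 4th of 45 anticodons in neuroblasts and 1st in neurons. Its lead in neurons was narrow, at 21288 TMM per bp against 21020 for Asp-GUC. In plain sums Asp-GUC was ahead there, with 1513453 TMM against 1511417 TMM. Gly-UCC ranked 14th in neuroblasts and 9th in neurons per base. In neurons Tyr-GUA and Ser-AGA ranked below it per base but had larger sums. The sums were 540226 TMM for Tyr-GUA, 558834 TMM for Ser-AGA and 504656 TMM for Gly-UCC. Median gene lengths, with any introns included, were 94 and 108 bp for the Tyr-GUA isodecoders. They were 82 bp for those of Ser-AGA and 72 bp for those of Gly-UCC.

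Glycine genes formed 6.90% of the 290 annotated nuclear tRNA genes, and glycine tRNAs formed 8.74% of nuclear TMM in neuroblasts and 12.2% in neurons. Per gene, both glycine anticodons were close to each other in neuroblasts, with 58176 TMM for Gly-GCC and 60114 TMM for Gly-UCC. In neurons they were at 107958 TMM per gene for Gly-GCC and 84109 TMM per gene for Gly-UCC. Dividing by gene number treats the copies alike, since identical mature sequences share 1 value and the output of each copy cannot be read from it. Gly-GCC-1-X averaged 52219 TMM per gene in neuroblasts and 106436 TMM per gene in neurons. The single gene of Gly-GCC-2-1 had 2.60 times the per-gene level of Gly-GCC-1-X in neuroblasts and 1.20 times in neurons. The median over the 84 nuclear isodecoders was 30264 TMM per gene in neuroblasts and 42713 TMM per gene in neurons, and every glycine isodecoder was above it in both groups.

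**Figure D4:**
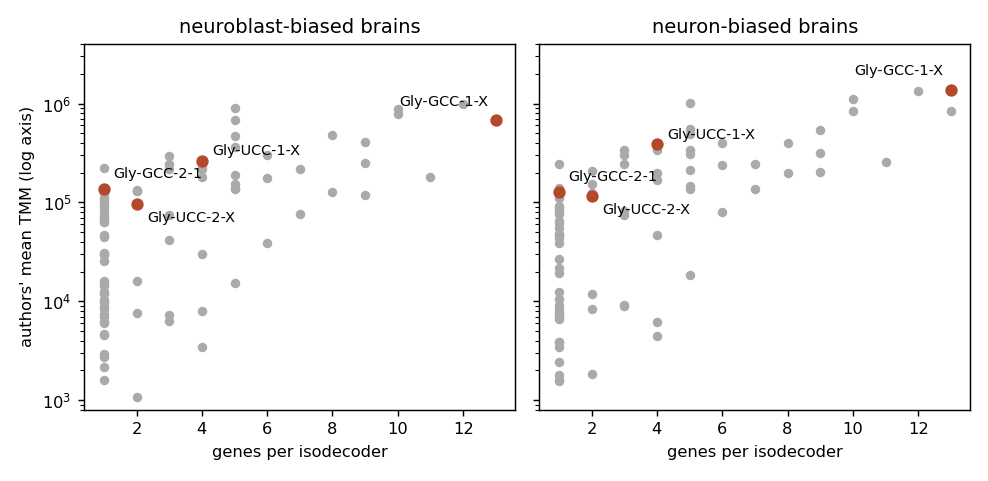
Mean TMM (log axis) against the number of genes of each of the 84 nuclear isodecoders, in neuroblast-biased brains on the left and neuron-biased brains on the right, with the glycine isodecoders in red. Gly-GCC-1-X has 13 genes and lies at 678845 TMM in neuroblasts and 1383673 TMM in neurons.

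By distance in the log2 means of both groups, the isodecoder of another amino acid most like Gly-GCC-1-X was Arg-ACG-1-X, with 782224 TMM in neuroblasts and 1122654 TMM in neurons, at a distance of 0.36. For Gly-GCC-2-1 it was Ile-UAU-1-X, at a distance of 0.07, and for Gly-UCC-1-X it was Glu-UUC-1-X, at 0.20. For Gly-UCC-2-X it was Lys-UUU-1-1, at 0.11. These distances rest on 2 group means for each tRNA and include the level, so they describe nearness in abundance as well as in ratio. Gly-GCC-1-X was thus the member with the most distant neighbour.

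The mitochondrial glycine tRNA, which is encoded by the mitochondrial genome and serves translation inside mitochondria, differed in the other direction. It averaged 29539 TMM in neuroblasts and 13684 TMM in neurons. The log2 ratio was 1.11, against a median of 0.79 over the 22 mitochondrial tRNAs. It had the 8th highest ratio of these 22. It made up 2.45% of all glycine tRNA signal in neuroblasts and 0.674% in neurons.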

How the data were processed

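According to the study's methods, hydro-tRNAseq reads were trimmed, aligned to collapsed mature tRNA sequences with a 3′ CCA added, filtered on mapping quality and counted, with multi-mapped reads divided between their references. The authors' deposited signal is the TMM-normalised count of each tRNA, averaged over the 3 replicates of a group. The study's methods name a batch correction beside this normalisation, and the column names do not say whether the means include it. The batches are not named. The authors' deposited table also holds their own ratio, probability and q-value columns, which were not used.

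Samples were grouped by the labels. From the means, log2 ratios (neuroblast over neuron, no pseudocount), shares, ranks and distances were computed with Python 3.11.15, numpy 2.4.6 and pandas 2.3.3, and plotted with matplotlib 3.10.9. The formulas were checked on simulated data. Genes were matched by name to the RefSeq annotation of Release 6, and all 84 nuclear isodecoders were found. Levels of different tRNAs were ranked per base of median gene length, which includes introns. All glycine isodecoders were named, with their nearest tRNA of another amino acid and the adjoining families. Members, lists and alternatives were chosen with earlier results of these data known. tRNA sequences were not used here.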

Additional observations from a re-analysis of the deposited data

How the results depend on the processing

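The alternatives were a pseudocount of 100 TMM, 3 other scalings, a fold of 1, a minimum mean of 5000 TMM, averaging of isodecoders, another denominator and leaving out Gly-GCC-1-X. Gly-GCC-1-X and Gly-GCC-2-1 kept their direction and their side of 0.5 under the pseudocount and the 3 scalings, at −1.03 to −0.73 and 0.09 to 0.39. Gly-UCC-1-X dropped below 0.5 in size with equal summed nuclear TMM (−0.26), with the nuclear median at 0 (−0.29) and with equal sums of all tRNAs (−0.29). Gly-UCC-2-X turned to 0.031 with equal summed nuclear TMM. The count past 0.5 was 2, and became 1 at a fold of 1 or with the nuclear median at 0. Without Gly-GCC-1-X, the GCC share of the glycine pool was 27.3% in neuroblasts and 20.2% in neurons, the opposite order to that with it. That order follows from the ratios of the remaining isodecoders. The glycine share of nuclear TMM without Gly-GCC-1-X was 3.89% in neuroblasts and 4.17% in neurons. Over nuclear and mitochondrial tRNAs together, glycine took 8.27% in neuroblasts and 11.8% in neurons. With the minimum mean it took 8.75% of nuclear TMM in neuroblasts. Averaging isodecoders left the GCC to UCC ratio as it was, since each anticodon has 2. Leaving out replicates was not possible with group means. No paired analysis was possible because the table holds 1 mean per group. Depth per library is unknown, so the precision of every value is unknown.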

Other observations

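Among the 13 genes of Gly-GCC-1-X, 3 have a Trp-CCA-2 gene as their nearest tRNA gene, at gaps of 97, 99 and 106 bp on chromosome arm 2R. Trp-CCA-2-X, which reads the tryptophan codon and has 6 genes, averaged 39053 TMM in neuroblasts and 80170 TMM in neurons, a log2 ratio of −1.04 beside the −1.03 of Gly-GCC-1-X. On 2L, the gene of Gly-GCC-2-1 lies 237 bp from a gene of Gly-GCC-1-X, and the ratios of these isodecoders were 0.09 and −1.03. The output of a single gene copy cannot be read from these data, whether nearness of genes bears on the ratios was not tested, and both pairs were chosen after their values were seen.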
